A study of Rattus norvegicus with 12 samples.

Results

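The aryl hydrocarbon receptor pathway was followed here through 8 genes: the receptor Ahr, its partner Arnt, the feedback inhibitors Ahrr and Tiparp, the P450 enzymes Cyp1a1, Cyp1a2 and Cyp1b1, and the aldehyde dehydrogenase Aldh3a1. They were chosen by gene symbol, 8 of 13912 symbols in the deposited workbook, and are read by 10 of its 31099 probe sets, because Ahr and Tiparp have 2 probe sets each. RNA from the liver of Sprague-Dawley rats was hybridised to 12 arrays (Affymetrix Rat Genome 230 2.0), 3 for each of 4 groups. The groups were normal liver (0h) and livers at 3, 6 and 9 weeks of carbon tetrachloride, a solvent toxic to hepatocytes that is used to produce cirrhosis. The age label is 12 weeks in every group, no vehicle or time-matched control was among the samples, and the dose, route, sex and number of rats are not given in the sources used here. The 3 arrays of a group are labelled technical replicates, so the errors and p-values measure the spread between arrays and not that between animals.

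AHR is a transcription factor of the bHLH-PAS family that waits in the cytoplasm bound to HSP90 and p23. Planar aromatic compounds and some tryptophan metabolites bind it, after which it enters the nucleus, pairs with ARNT and binds DNA sites with the core GCGTG, the xenobiotic response element. Textbook targets include Cyp1a1, Cyp1a2, Cyp1b1, Ahrr and Tiparp, and AHRR and TIPARP limit the receptor in turn. In normal liver Cyp1a2 is made constitutively by hepatocytes, mostly near the central vein, whereas Cyp1a1 is low until the receptor is activated.

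The promoter windows of the 4 genes that the results turn on and that have an entry in the RefSeq table (rat build GRCr8) are shown so that the response element core can be seen in place. Each window runs from 250 bases before to 50 bases after the gene's start, 5′ to 3′ on the gene's strand, and capitals mark GCGTG on either strand (CACGC when read on the gene's strand) and the TATA box letters TATAAA on either strand. The windows lie at chr8:66978100-66978399 (minus strand) for Cyp1a2, chr6:57998852-57999151 (minus strand) for Ahr, chr2:185686453-185686752 (plus strand) for Arnt and chr2:152063519-152063818 (plus strand) for Tiparp.
Cyp1a2: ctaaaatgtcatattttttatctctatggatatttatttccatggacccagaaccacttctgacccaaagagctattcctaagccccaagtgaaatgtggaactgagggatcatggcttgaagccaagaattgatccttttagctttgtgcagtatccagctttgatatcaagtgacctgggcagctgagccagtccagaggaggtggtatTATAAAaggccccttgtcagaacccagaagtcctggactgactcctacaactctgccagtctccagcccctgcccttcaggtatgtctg
Ahr: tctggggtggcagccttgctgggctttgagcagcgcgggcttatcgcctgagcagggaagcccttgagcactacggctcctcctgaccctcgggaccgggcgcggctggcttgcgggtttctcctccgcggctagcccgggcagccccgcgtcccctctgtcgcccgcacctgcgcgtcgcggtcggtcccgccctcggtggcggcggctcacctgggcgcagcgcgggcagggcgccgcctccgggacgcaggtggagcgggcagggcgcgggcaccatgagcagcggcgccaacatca
Arnt: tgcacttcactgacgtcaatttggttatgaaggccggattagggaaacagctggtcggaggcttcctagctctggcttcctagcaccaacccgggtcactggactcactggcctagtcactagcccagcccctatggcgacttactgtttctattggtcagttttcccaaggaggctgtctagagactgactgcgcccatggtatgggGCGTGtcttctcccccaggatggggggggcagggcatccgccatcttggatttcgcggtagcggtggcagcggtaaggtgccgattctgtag
Tiparp: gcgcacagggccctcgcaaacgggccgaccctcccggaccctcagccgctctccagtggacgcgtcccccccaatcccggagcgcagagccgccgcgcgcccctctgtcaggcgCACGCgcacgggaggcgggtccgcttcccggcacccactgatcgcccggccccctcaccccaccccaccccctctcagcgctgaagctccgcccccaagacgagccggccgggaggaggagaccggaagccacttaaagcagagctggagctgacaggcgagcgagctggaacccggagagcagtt

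The Cyp1a2 window had no GCGTG on either strand and 1 TATAAA, whose first base lies 39 bases before the start. The Ahr window had neither motif. The Arnt window had 1 GCGTG, 42 bases before the start, and the Tiparp window had 1 on the other strand, 136 bases before it. Among the members not printed, the Ahrr window had 3 GCGTG and the Cyp1b1 window 2. Cyp1a1 and Aldh3a1 had no entry among the promoter windows used, so theirs could not be searched. Of all 33469 promoter windows of the same length, 29.7% held GCGTG and 14.2% held TATAAA on either strand, and the letters of the 2 motifs cannot overlap. A match is a run of letters and was not tested as a binding site. Sites more than 250 bases before the start lie outside the windows and were not searched.

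Signals are the authors' scaled intensities, given for each array or as mean ± SD (n = 3 arrays). Changes are differences between group means of log2(signal + 16) with their SE, a scale that understates the change of dim probe sets. The words rose and fell are kept for probe sets that changed 2-fold or more with a limma p under 0.05 after Benjamini-Hochberg adjustment over 18609 tested probe sets. Those were the probe sets whose 12-array mean exceeded a signal of 75.5, the 40th percentile. Of the 10 member probe sets 7 passed that filter, covering 6 of the 8 genes; those of Ahrr and Aldh3a1 and the dimmer one of Ahr did not and stayed out of that fit.

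At 3 weeks against 0h, 1 of the 7 tested member probe sets rose and 0 fell (limma; 1 was higher and 2 were lower at an unadjusted p under 0.05), where 3.11% of all tested probe sets rose and 1.31% fell. At 6 weeks 1 member rose and 1 fell, where 5.07% of all rose and 3.83% fell. At 9 weeks 1 member rose and 3 fell, where 5.85% of all rose and 4.29% fell. The single rise was that of Cyp1a1 at each of the 3 times, and the falls were those of Cyp1a2 at 6 and 9 weeks and of Ahr and Arnt at 9 weeks. These 3 comparisons share the 0h arrays, which had the highest summed signal of pancreas markers. Of 4 tested pancreas markers 2 fell at 3 weeks, 3 at 6 weeks and 3 at 9 weeks, and their summed signal was 632 to 765, 453 to 508 and 310 to 341 at those times, against 7167 to 7908 at 0h, most of it from Cpa1, a pancreatic carboxypeptidase, at 6264 in the 0h mean. The other markers did not all run that way: Cela1, an elastase, fell at all 3 times (-1.39, -1.69 and -2.57), and Cpb1, another carboxypeptidase, fell at 6 and 9 weeks (-1.82 and -1.86) but not at 3 weeks (-0.16). Pnlip, pancreatic lipase, did not pass and averaged 106.9, 81.5 and 83.7 at 3, 6 and 9 weeks, against 57.4 at 0h, and Prss1 was under the filter. Their part in the changes of the members was not tested. The median change of the 7 members was -0.33, -0.30 and -0.53 at 3, 6 and 9 weeks, beside 0.03, 0.04 and 0.04 over all tested probe sets.

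Between the carbon tetrachloride times, 1 member rose (Cyp1a1) and 1 fell (Cyp1a2) at 6 against 3 weeks, where 2.94% of all rose and 3.8% fell. At 9 against 6 weeks 0 members rose and 1 fell (Arnt), where 1.57% of all rose and 1.16% fell; 1 member was higher and 5 were lower at an unadjusted p under 0.05 in limma. At 9 against 3 weeks 1 rose (Cyp1a1) and 2 fell (Cyp1a2 and Arnt), where 2.55% of all rose and 3.03% fell.

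**Figure D1:**
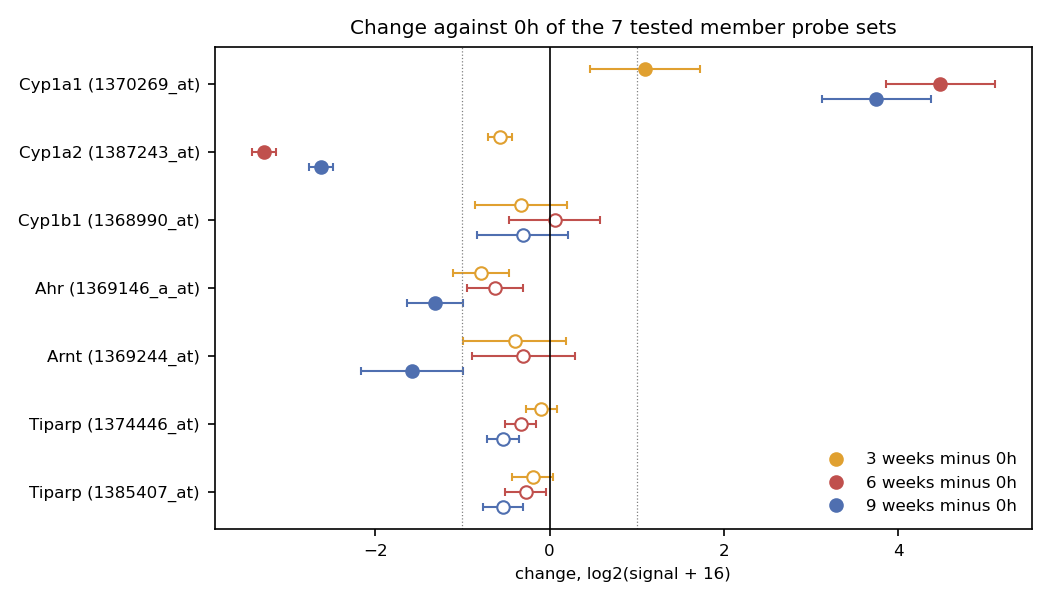
Change of each tested member probe set at 3, 6 and 9 weeks minus 0h, in log2(signal + 16), with 95% confidence intervals from limma. Filled points passed the test, open points did not, and dotted lines mark a 2-fold change; Cyp1a1 lies to the right at 6 and 9 weeks (4.48 and 3.75) and Cyp1a2 to the left (-3.28 and -2.62).

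Cyp1a1 (probe set 1370269_at), the enzyme that oxidises planar aromatic hydrocarbons and the standard readout of the receptor, was dim in normal liver and bright at 6 weeks. Its signals were 26.8, 49.8 and 48.1 at 0h, 143, 168.3 and 44.1 at 3 weeks, 1135.8, 1341.9 and 1272.4 at 6 weeks, and 725.8, 762.2 and 745.9 at 9 weeks. All arrays at 6 and 9 weeks lay above all arrays at 0h and 3 weeks, while the third array at 3 weeks lay within the range of 0h.

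The 0h signals were under the filter level and no detection calls were used here, so how far they lie above background is not known. At 6 weeks the mean signal of Cyp1a1 was 1250 ± 105, against 41.6 ± 12.8 at 0h, a ratio of 30.1. The change was 4.48 ± 0.30 (adjusted p = 1.67e-09), the fourth largest rise among the 18609 probe sets tested. At 9 weeks it averaged 744.6 ± 18.2, which is 17.9 times the mean at 0h, with a change of 3.75 ± 0.30 (adjusted p = 1.62e-08) and place 12 among the rises. At 3 weeks the change was 1.10 ± 0.30 (adjusted p = 0.00764). The rise at 3 weeks rested on the first and second arrays of that time: the change was 0.79 without 3 week replicate 2, 0.90 without 3 week replicate 1 and 0.89 without 0h replicate 1, each under 2-fold, and 1.60 without 3 week replicate 3. With median centring of the arrays it was 0.996, just short of 2-fold, and with a pseudocount of 64 it was 0.72. With only the 0h and 3 week arrays in the fit, adjusted p was 0.0639.

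Cyp1a1 was higher at 6 than at 3 weeks by 3.39 ± 0.30 (adjusted p = 7.11e-08) and higher at 9 than at 3 weeks by 2.65 ± 0.30 (adjusted p = 1.56e-06). At 9 weeks against 6 weeks it differed by -0.73 ± 0.30 (95% interval -1.36 to -0.11, adjusted p = 0.086), which did not pass, although all 9 week arrays lay below all 6 week arrays. The order of the levels was therefore 0h, 3 weeks, 9 weeks, 6 weeks, with the last pair not separated by the test in the fit reported. Over 22 alternatives the difference between 9 and 6 weeks ran from -0.80 to -0.68, always under 2-fold. Its limma adjusted p ran from 2.12e-05 to 0.192, so that part of the result depended on the fit. In the authors' deposited table the median of 9 log2 ratios against 0h was 1.7, 4.7 and 3.9 at 3, 6 and 9 weeks, and at 3 weeks those ratios ran from -0.3 to 2.9.

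**Figure D2:**
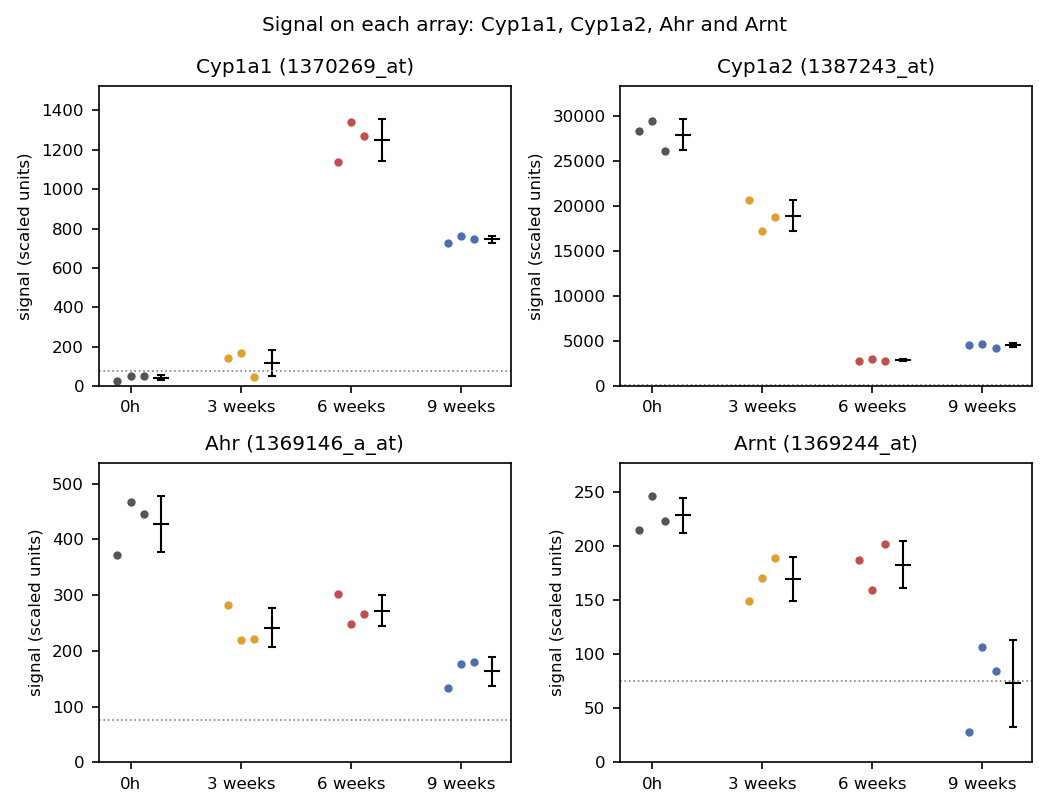
Signal on each of the 12 arrays (points, scaled units) for Cyp1a1, Cyp1a2, Ahr and Arnt at 0h, 3, 6 and 9 weeks, with mean and SD of 3 arrays as black marks and the filter level of 75.5 as a dotted line. Cyp1a1 is high at 6 and 9 weeks, where Cyp1a2 is low, and Ahr and Arnt have their lowest means at 9 weeks (163.3 and 73.2).

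Cyp1a2 (1387243_at), the hepatocyte P450 that metabolises caffeine and activates aromatic amines, ran the other way. Its signals were 28349.4, 29460.9 and 26117 at 0h, 20732.7, 17274.4 and 18771.9 at 3 weeks, 2819.6, 3029.5 and 2753.6 at 6 weeks, and 4601.4, 4690.1 and 4273.8 at 9 weeks. No pair of groups overlapped, and the order from high to low was 0h, 3 weeks, 9 weeks, 6 weeks.

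Over all 12 arrays the Cyp1a2 probe set was at the 98.5th percentile of probe sets by mean signal. At 6 weeks it averaged 2868 ± 144, against 27976 ± 1703 at 0h, so the 0h mean was 9.76 times the 6 week mean, with a change of -3.28 ± 0.06 (adjusted p = 2.33e-16) and place 35 among the falls of the 18609 probe sets. At 9 weeks the mean was 4522 ± 219 and the change against 0h was -2.62 ± 0.06 (adjusted p = 6.04e-15). At 3 weeks it was 18926 ± 1734, a change of -0.57 ± 0.06 (adjusted p = 3.22e-06) that was short of 2-fold.

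Cyp1a2 also fell between times, with differences of -2.71 ± 0.06 at 6 against 3 weeks (adjusted p = 4.72e-15) and -2.06 ± 0.06 at 9 against 3 weeks (adjusted p = 2.5e-13). At 9 against 6 weeks it was higher by 0.65 ± 0.06 (adjusted p = 1e-06), short of 2-fold. The steps of Cyp1a1 and Cyp1a2 thus had opposite signs in each of the 6 pairs of groups compared, which share arrays, although the step of Cyp1a1 between 6 and 9 weeks did not pass. The authors' deposited table gives Cyp1a2 median log2 ratios against 0h of -0.6, -3.3 and -2.8. Cyp1a1 and Cyp1a2 are close paralogs, and whether either probe set reads both transcripts was not tested. In bulk tissue, fewer cells that make a transcript and less of it per cell cannot be told apart.

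Cyp1a1 and Cyp1a2 are next to each other in the RefSeq gene order. The protein-coding genes on either side, picked once the data were in hand, were Csk, a kinase that restrains Src, and Edc3, an mRNA decapping factor. Neither passed in any of the 6 comparisons: Csk averaged 967.9 at 6 weeks and 855.3 at 0h, and Edc3 148.5 at 6 weeks and 124.7 at 0h.

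**Figure D3:**
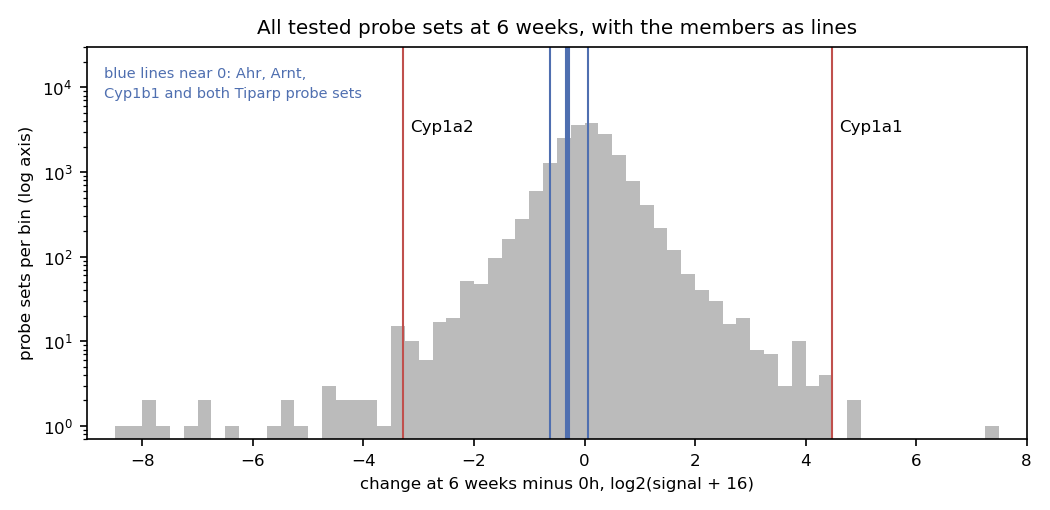
Histogram of the change at 6 weeks minus 0h, in log2(signal + 16), over all 18609 tested probe sets (log count axis), with the 7 tested member probe sets as vertical lines. Cyp1a1 at 4.48 and Cyp1a2 at -3.28 stand in opposite tails, and the other 5 lines fall between -0.62 and 0.06.

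Cyp1b1 (1368990_at), a P450 found mostly outside the liver that hydroxylates oestradiol, did not pass in any comparison. Its signals were 124.9, 151 and 132 at 0h, 101.8, 75.6 and 147.8 at 3 weeks, 142.1, 133.5 and 150.4 at 6 weeks, and 70, 119.6 and 141.2 at 9 weeks. All 4 groups overlapped, and the widest spread was within 3 and 9 weeks (SD 36.5 in both). The difference at 6 weeks against 0h was 0.06 with a 95% interval of -0.47 to 0.58, which holds no 2-fold change in either direction. Stellate cells are the mesenchymal cells that lay down scar. Of 9 tested markers of them, 4 rose at 3 weeks, 1 at 6 weeks and 3 at 9 weeks. Col1a1 was also called at 6 weeks with a pseudocount of 1 and without 0h replicate 3 or 6 week replicate 3. Its other probe set rose at 3 weeks (1.15) but did not pass at 6 or 9 weeks (0.17 and 0.40). Tagln was also called at 3 weeks without 0h replicate 2 (1.18), and Pdgfrb at 3 and 9 weeks without 0h replicate 3 (1.14 and 1.09). The call of Acta2 at 3 weeks was at the edge of 2-fold and was lost with a pseudocount of 64 (0.82), with median centring (0.90), with quantile normalization (0.94) and without 0h replicate 2, 0h replicate 3 or 3 week replicate 2, and that of Tagln at 9 weeks with a pseudocount of 64 (0.92). The summed signal of the 9 markers was 15853 to 16698 at 3 weeks, 9676 to 10072 at 6 weeks and 10071 to 10418 at 9 weeks, against 6205 to 6380 at 0h. Most of it came from Col3a1, which averaged 10825, 5441 and 5404 at 3, 6 and 9 weeks, against 3534 at 0h.

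Ahr, the receptor itself, was lower at each time than at 0h and passed the test at 9 weeks. The brighter probe set (1369146_a_at) gave 371.8, 467.4 and 444.9 at 0h, 282.3, 220.1 and 222 at 3 weeks, 302.6, 248.1 and 266.2 at 6 weeks, and 133.3, 177.3 and 179.4 at 9 weeks. The 0h arrays lay above all others and the 9 week arrays below all others, while 3 and 6 weeks overlapped.

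At 9 weeks Ahr averaged 163.3 ± 26, against 428 ± 50 at 0h, so the 0h mean was 2.62 times the 9 week mean (change -1.31 ± 0.15, adjusted p = 1.64e-06). The differences at 3 weeks (-0.79 ± 0.15, adjusted p = 0.000589) and 6 weeks (-0.62 ± 0.15, adjusted p = 0.00268) were under 2-fold. At 9 against 6 weeks Ahr differed by -0.69 ± 0.15 (adjusted p = 0.00278), also under 2-fold, and 6 weeks against 3 weeks gave 0.17 with a 95% interval of -0.15 to 0.49. The second Ahr probe set (1369147_at) was dim, at 16.7 to 85 on single arrays, and its groups overlapped, with means of 69.4, 58, 58.5 and 47.4 at 0h, 3, 6 and 9 weeks.

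Arnt (1369244_at), the partner that AHR needs to bind DNA and that HIF1A uses as well, fell at 9 weeks. Its signals were 215.4, 246.6 and 223.3 at 0h, 149.3, 170.4 and 189.5 at 3 weeks, 187, 159.8 and 202.1 at 6 weeks, and 28.5, 106.7 and 84.4 at 9 weeks. The 9 week arrays lay below all others and the 0h arrays above all others, and 3 and 6 weeks overlapped.

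Arnt averaged 73.2 ± 40.3 at 9 weeks, against 228.4 ± 16.2 at 0h, a change of -1.58 ± 0.28 (adjusted p = 0.000158). It was also lower at 9 than at 6 weeks (-1.28 ± 0.28, adjusted p = 0.0027) and at 9 than at 3 weeks (-1.18 ± 0.28, adjusted p = 0.00263). The first 9 week array was far below the other two. Without 9 week replicate 1 the fall against 0h was -1.14 and still passed, but the differences from 6 and 3 weeks were -0.84 and -0.74, under 2-fold. At 3 and 6 weeks the differences from 0h were -0.40 ± 0.28 and -0.30 ± 0.28 (adjusted p = 0.279 and 0.4) and did not pass.

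The 9 week arrays also stood apart in the control probe sets that read the 3′ and 5′ ends of the same transcript, a measure of how intact the RNA and its copies were. The 3′ over 5′ signal ratio of beta-actin was 3.24 to 3.8 at 9 weeks, above the 2.15 to 2.71 at 0h, 2.46 to 2.73 at 3 weeks and 2.47 to 2.63 at 6 weeks. That of GAPDH was 1.39 to 1.43 at 9 weeks, above 1.08 to 1.19 at 0h, 1.24 to 1.28 at 3 weeks and 1.12 to 1.23 at 6 weeks. The part of these ratios in the changes of the members, the 9 week falls of Ahr and Arnt among them, was not tested.

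**Figure D4:**
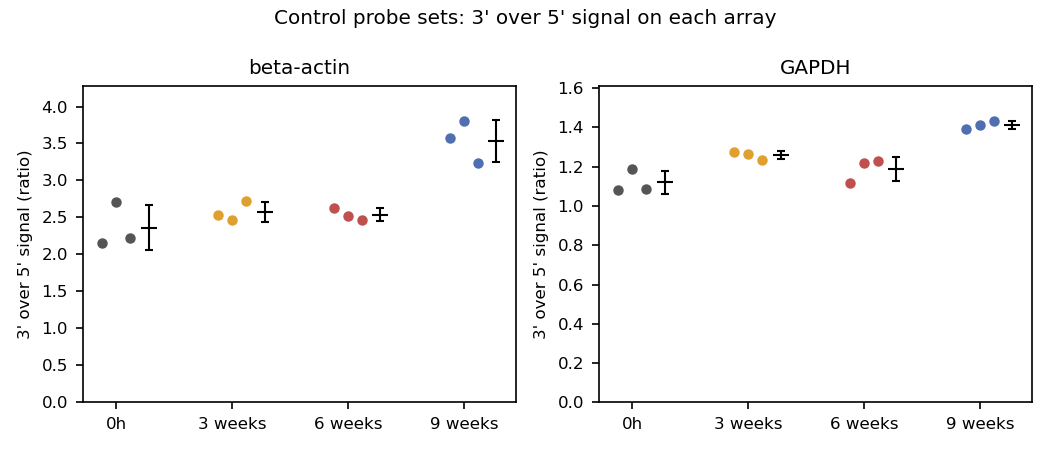
Ratio of 3′ to 5′ signal of the beta-actin and GAPDH control probe sets on each array (points), with mean and SD of 3 arrays as black marks, at 0h, 3, 6 and 9 weeks. The 9 week arrays are the highest for both transcripts, at 3.24 or above for beta-actin and 1.39 or above for GAPDH.

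Tiparp, a mono-ADP-ribosyltransferase that is switched on by AHR and restrains it, had 2 bright probe sets, and neither passed in any comparison. Probe set 1374446_at gave 836.7, 816.2 and 921.6 at 0h, 781.1, 809.3 and 815.9 at 3 weeks, 662.9, 613.7 and 767 at 6 weeks, and 578.7, 607.9 and 576.2 at 9 weeks. Probe set 1385407_at gave 584.7, 689.4 and 669.7 at 0h, 574.9, 534.3 and 584.4 at 3 weeks, 580.8, 473.4 and 547.1 at 6 weeks, and 376.3, 493.3 and 462.8 at 9 weeks. In both probe sets the arrays at each carbon tetrachloride time lay below those at 0h, by a narrow margin at 3 weeks.

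At 9 weeks the 2 Tiparp probe sets gave the same difference from 0h, -0.53 ± 0.08 (adjusted p = 5.82e-05) and -0.53 ± 0.11 (adjusted p = 0.000662). At 6 weeks, when Cyp1a1 was highest, they gave -0.33 with a 95% interval of -0.51 to -0.15 and -0.27 with an interval of -0.51 to -0.04, so neither interval holds a rise. In all, 5 of the 7 tested member probe sets lay wholly below 0h at each of 3, 6 and 9 weeks, where 21.9%, 25.5% and 25.9% of all tested probe sets did: Cyp1a2, Ahr, Arnt and both of Tiparp. At 3 weeks 0 members lay wholly above 0h, where 25.2% of all did, and at 6 and 9 weeks 1 did, Cyp1a1, where 29.8% and 31.5% of all did.

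Ahrr (1380746_at), the repressor that competes with AHR for ARNT, was at the 1.8th percentile of probe sets. Its signals ran from 1.8 to 22.9 over all 12 arrays, with means of 8 at 0h, 4.9 at 3 weeks, 2.8 at 6 weeks and 9.7 at 9 weeks, and the groups overlapped apart from 6 weeks and 0h. Detection calls were not used here, so whether the transcript was present cannot be said.

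Aldh3a1 (1368130_at), an aldehyde dehydrogenase that is scarce in normal rat liver and inducible through AHR, was also under the filter. It gave 45.3, 22.3 and 9.9 at 0h, 10.8, 3.8 and 10.4 at 3 weeks, 61.3, 18 and 35.2 at 6 weeks, and 48.7, 38.8 and 29.9 at 9 weeks. The 3 week mean was the lowest, and each of the later groups overlapped with 0h. With no filter, the fit gave Aldh3a1 as higher at 6 than at 3 weeks by 1.09 ± 0.37 (adjusted p = 0.0456) and at 9 than at 3 weeks by 1.18 ± 0.37 (adjusted p = 0.0303), and it did not pass against 0h at any time.

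**Figure D5:**
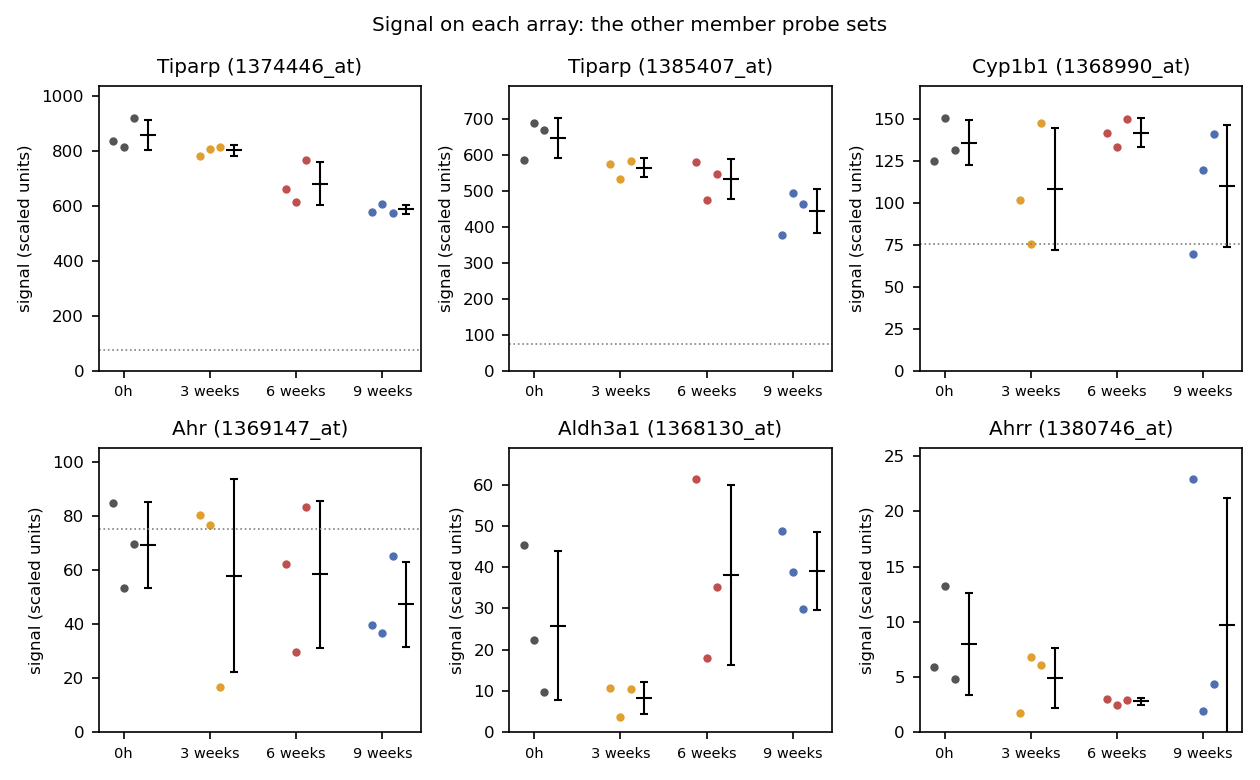
Signal on each array (points, scaled units) for the 2 Tiparp probe sets, Cyp1b1, the dimmer Ahr probe set, Aldh3a1 and Ahrr at 0h, 3, 6 and 9 weeks, with mean and SD of 3 arrays as black marks and the filter level of 75.5 as a dotted line where it is in range. Tiparp is lowest at 9 weeks (587.6 and 444.1), and Ahrr stays at or below 22.9 on every array.

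Of 10 other listed genes that AHR is known to induce, 6 were tested. No probe set was named for Ugt1a6, Ugt1a7c or Gsta2 alone, and Serpinb2 was under the filter. Of the 6, 0 rose at any time, where 3.11%, 5.07% and 5.85% of all tested probe sets rose at 3, 6 and 9 weeks. In limma 0, 2 and 2 were higher and 3, 2 and 3 lower at an unadjusted p under 0.05 at those times. The median change was -0.11, 0.05 and -0.10. Nqo1, a quinone reductase, averaged 9175 ± 418 at 6 weeks and 9321 ± 442 at 9 weeks, against 6062 ± 387 at 0h, differences of 0.60 and 0.62 that were under 2-fold. Slc7a5, an amino acid and kynurenine carrier, differed by 0.99 ± 0.24 at 6 weeks, at the edge of 2-fold. It was called as a rise at 6 weeks with a pseudocount of 1 (1.07). The same held without 0h replicate 1 (1.22), 0h replicate 3 (1.10), 6 week replicate 1 (1.05) or 6 week replicate 2 (1.05). At 9 weeks Slc7a5 differed by 0.80 and was called without 0h replicate 1 (1.03). Xdh, xanthine dehydrogenase, fell at 6 weeks (-1.08 ± 0.05).

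Among 9 tested AHR chaperones and coactivators (medians 0.27, 0.15 and 0.21 at 3, 6 and 9 weeks), Hsp90aa1, which holds the receptor in its ligand-binding form, rose at 3 weeks (1.29 ± 0.04), and 1 of its other probe sets gave 1.15 and the other -0.29. The latter probe set fell at 6 weeks (-1.23), where the brightest gave 0.67. Ncoa2, a coactivator, was dim and rose at 3 weeks (1.28 ± 0.26, to 157 ± 54.4 against 53.1 ± 6.9 at 0h) and at 6 weeks (1.16, a call lost without 6 week replicate 1, at 0.98). With a pseudocount of 64 both calls were lost (0.89 and 0.79). Of 5 tested bHLH-PAS relatives (medians 0.26, 0.01 and -0.68), Npas2, a clock activator, fell at 6 weeks (-1.61 ± 0.15) and 9 weeks (-1.34), and Arnt2, a close relative of Arnt, fell at 9 weeks (-1.59 ± 0.48). That call was lost when 0h replicate 1, 9 week replicate 1 or 9 week replicate 2 was left out (adjusted p = 0.0619, 0.0645 and 0.0622), and with a pseudocount of 64 (-0.98).

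Of 8 tested genes of the kynurenine pathway, which yields AHR ligands from tryptophan, 0 were called at 3 weeks (limma; 3 were higher and 3 lower at an unadjusted p under 0.05), and 0 rose and 2 fell at 6 and at 9 weeks. Those were Kmo (-1.23 and -1.34) and Kynu (-1.41 and -1.25), and the list medians were -0.07, -0.36 and -0.32 at 3, 6 and 9 weeks. Tdo2, the first enzyme, differed by -0.33 and -0.38 at 6 and 9 weeks and did not pass. Among 7 tested genes that supply P450 enzymes with heme and electrons (medians -0.03, -0.22 and -0.22), Alad, of heme synthesis, fell by 1.61 at 6 weeks and by 1.25 at 9 weeks, Por, the electron donor, rose by 1.08 at 6 weeks and Hmox1, which degrades heme, rose by 1.12 at 3 weeks. Alas1, the first enzyme of heme synthesis, gave -0.78 at 6 weeks, under 2-fold.

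Among 8 tested liver transcription factors (medians -0.27, -0.43 and -0.43), Onecut1 fell at 3, 6 and 9 weeks (-1.23, -1.86 and -2.52), and its other probe set passed at 9 weeks alone (-1.76). Rxra did not pass on its brightest probe set (-0.13 at 9 weeks), but its other probe set fell at 9 weeks (-1.45). Against 0h 0 of the 8 rose at any time. Nr1i3, a nuclear receptor, was lower than at 0h at 3 and 6 weeks (-0.66 and -0.82) and higher at 9 weeks (0.37), each under 2-fold. It rose at 9 against 6 weeks (1.19) and at 9 against 3 weeks (1.03), and in each of those steps 1 of the 8 fell. Hnf4a fell at 9 weeks (-1.98 ± 0.08, other probe set -1.35) and by 1.01 at 3 weeks, a call lost without 3 week replicate 1 (-0.99) or 3 (-0.97), with a pseudocount of 64 (-0.98) and with quantile normalization (-0.99); the other probe set gave -0.22 at 3 weeks. Of 7 tested pericentral genes, which share the zone of Cyp1a2 (medians -0.80, -0.67 and -0.61), Oat, ornithine aminotransferase, fell at 6 and 9 weeks (-1.83 and -2.85). The P450 Cyp2e1 differed by -0.32 and -0.29 and Glul, glutamine synthetase, by -0.88 and -0.73, and neither passed on the brightest probe set. Of the other Glul probe sets, 1 fell at 3, 6 and 9 weeks (-1.19, -1.01 and -1.25) and the other did not pass (-0.85, -0.76 and -0.73). At 3 weeks the falls were those of the glutamate carrier Slc1a2 (-1.21), lost without 3 week replicate 2 (-0.94) and with a pseudocount of 64 (-0.92), and the transcription factor Tbx3 (-1.44), lost without 0h replicate 2, 0h replicate 3 or 3 week replicate 2 (-1.34, -1.40 and -0.62). The Tbx3 call was also lost with a pseudocount of 64 (-0.87), and with no filter, with no intensity trend and with only the compared groups in the fit (adjusted p = 0.0518, 0.0667 and 0.0547), and its other probe set did not pass (-0.62). At 6 weeks Slc1a2 was higher than at 0h by 0.57, which did not pass. It rose at 6 against 3 weeks (1.78) and fell at 9 against 6 weeks (-1.18). Axin2 was higher at 9 weeks than at 0h by 0.50, under 2-fold. Rgn was lower at 6 and 9 weeks (-0.95 and -0.93), also under 2-fold, but was called at 6 weeks without 0h replicate 3 (-1.01).

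Of 8 tested targets of NRF2, the oxidant response factor, 4 rose at 3 weeks, 3 at 6 weeks and 3 at 9 weeks, with medians of 0.87, 0.64 and 0.72. Nqo1 and Hmox1 belong to this list as well as to one above. Gpx2, a glutathione peroxidase (1.43, 3.30 and 3.05 at 3, 6 and 9 weeks) and Abcc3, an export pump (2.88, 4.37 and 4.61), rose at all 3 times, Srxn1, sulfiredoxin, at 6 and 9 weeks (1.85 and 2.27), and Gclc, of glutathione synthesis, and Hmox1 at 3 weeks. The other probe set of Gclc gave 0.73 at 3 weeks and did not pass. Abcc3 averaged 23.3 ± 18.2 at 0h, under the filter level, so how far that lies above background is not known.

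The tissue was checked against its markers. All 6 hepatocyte markers were tested and 0 were called against 0h at any time (limma; 3, 4 and 4 were lower and 0, 2 and 2 higher at an unadjusted p under 0.05), and their summed signal was 157418 to 173082 at 3 weeks, 143916 to 164579 at 6 weeks and 141563 to 156981 at 9 weeks, against 164596 to 188038 at 0h. Among these markers Tat was higher at 6 weeks by 0.85, and it was called as a rise with quantile normalization (1.06). Cyp1a2, also a hepatocyte gene, fell at 6 and 9 weeks. Of 3 tested red cell markers 3 fell at 6 weeks and 2 at 9 weeks (1 with quantile normalization, where Hbb gave -0.81). The macrophage, endothelium and lymphocyte lists each had 1 fall at 6 weeks. These were Adgre1 of 5 tested macrophage markers (-1.08), Kdr of 6 of endothelium (-1.09) and Gzmb of 3 of lymphocytes (-1.64). A second probe set of the lymphocyte marker Cd3e also fell at 6 weeks (-2.33). Of 2 tested bile duct markers 0 were called against 0h (limma; 0, 0 and 2 were higher and 0, 2 and 0 lower at an unadjusted p under 0.05 at 3, 6 and 9 weeks). Krt19 was 0.95 higher at 9 weeks. It was called with a pseudocount of 1 (1.04) and without 0h replicate 1 (1.10) or 9 week replicate 1 (1.01). The summed red cell markers were 12259 to 13706 at 6 weeks against 57723 to 64461 at 0h. The summed macrophage markers were 7762 to 7773 at 6 weeks against 12412 to 12809 at 0h, and the endothelial ones 4784 to 5080 against 8122 to 8785. The part of these in the changes of the members was not tested.

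The genes whose pattern was most like that of a member were found by Pearson r of log2 values over the 12 arrays, which fall into 4 groups and share their scaling. For Cyp1a1 they were Stradb, Dcaf6, Basp1, App and Erlec1 (r = 0.981 to 0.987). For Cyp1a2 they were Gamt, Dpt, C8a, Lipc and Gstp3 (r = 0.996 to 0.997). For Ahr they were Osbpl1a, Ifnar1, Crem, Papss2 and Pgrmc2 (r = 0.952 to 0.964).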

How the data were processed

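Per the labels' protocols, tissue came from the middle part of the right liver lobe, RNA was extracted with Trizol and RNeasy, and biotin-labelled cRNA was hybridised. The submitters' processing notes name GCOS 2.0; its settings are not stated. The authors deposited a workbook with an intensity (signal) per probe set and array, per the file headers; the values are scaled, since the mean after trimming 2% from each end was 500.2 on all 12 arrays. Arrays give no counts, so their number limits the precision. The authors' log2 ratios and ratios against 0h, deposited in the same workbook in 9 columns per time, were used only as a comparison. The series table holds the same intensities, deposited by the authors, within 0.1. The number of per-sample columns left unmatched was 0.

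Signals were used as log2(signal + 16). Control probe sets (57) and probe sets at or below the 40th percentile of the mean were left out. The 4 group means were fitted with limma 3.58.1 in R 4.3.3 (lmFit, eBayes with intensity trend, 8 residual degrees of freedom), and 6 comparisons were drawn from that fit, which was tested on simulated data. For the lists, symbols were brought up to date with RefSeq (15165 probe sets current, 3178 updated by synonym, 1516 kept, 11121 with none) and the brightest tested probe set stood for a gene. Python 3.11.15, pandas 2.3.3 and matplotlib 3.10.9 were used. Named genes were the members, list genes that passed, and the 5 genes most like Cyp1a1, Cyp1a2 and Ahr (Aldh3a1 was under the filter). Nqo1, Slc7a5, Tdo2, Alas1, Cyp2e1 and Glul, list genes that did not pass, were picked after their values were seen. Members and lists were chosen with earlier results of these data known. Alternatives covered pseudocount, filter, scaling, probe sets per gene, trend, samples in the fit, replicate block, source table and each array left out.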

Additional observations from a re-analysis of the deposited data

Results flagged for a closer look

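The differences between the 3 times in the change against 0h were tested as contrasts of the same limma fit (6 minus 3, 9 minus 6 and 9 minus 3 weeks), and 6 of them passed for a member. For Cyp1a1 the change was larger at 6 than at 3 weeks by 3.39 and at 9 than at 3 weeks by 2.65. For Cyp1a2 the corresponding differences were -2.71 and -2.06. For Arnt the change at 9 weeks differed by -1.28 from that at 6 weeks and by -1.18 from that at 3 weeks, and both rested on 9 week replicate 1.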

How the results depend on the processing

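Member results were recomputed under 22 alternatives, 12 of which leave out 1 array; the dimmer Tiparp probe set has 21, since 1 probe set per gene leaves it out. Of 918 such values, 908 stayed on their side of the threshold, 10 lost the call with the same direction, 0 gained one and 0 called values changed sign. The 10 were 6 for Cyp1a1 at 3 weeks and 4 for the Arnt differences from 3 and 6 weeks. The count of members called at 3 weeks against 0h, 1 in the fit reported, was 0 with a pseudocount of 64, with median centring and with only the 2 groups compared in the fit, and 0 to 1 with an array left out. The count at 9 against 6 weeks, also 1, was 0 with a pseudocount of 64 and 0 to 1 with an array left out. The Arnt differences from 6 and 3 weeks were -0.89 and -0.81 with a pseudocount of 64; a larger pseudocount shrinks changes of dim probe sets by construction.

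Same-numbered arrays of different groups correlated at -0.04 to 0.12 in their deviations from the group means, and others at -0.16 to 0.13, so the numbers were not taken as pairs. With the replicate block the members called stayed at 1, 2 and 4 against 0h at 3, 6 and 9 weeks, and all called probe sets at 6 weeks were 1655, against 1656.

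Over all probe sets, 822 were called at 3 weeks, against 462 with a pseudocount of 64, 1380 with no filter and 433 with 1 probe set per gene, which tests 10317. With 1 probe set per gene, 988 against 1656 were called at 6 weeks, 1027 against 1886 at 9 weeks, 776 against 1254 at 6 against 3 weeks, 261 against 508 at 9 against 6 weeks and 597 against 1038 at 9 against 3 weeks; with a pseudocount of 64, 301 were called at 9 against 6 weeks. At 3 weeks 70.4% of calls were rises, and 56.8% with median centring, which moved the median change to -0.07 from 0.03. Detection calls were not used here, so for Ahrr, Aldh3a1 and Cyp1a1 at 0h no floor of detection is known.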
